A study of Mus musculus with 7 samples.

Results

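Collagen genes were followed in RNA from mouse cochlear supporting cells. The genes were chosen by symbol alone: after the version suffix of each gene ID was dropped, the IDs were matched to mouse symbols, and protein-coding genes named Col, a number, a and a number were kept. This gave 44 genes of the 48709 in each table. The cochleae were taken at postnatal day 1 and kept as organ cultures in medium with EGF and FGF. For 48 h they received DMSO, the solvent control (2 libraries), 10 µM GSK-343, an inhibitor of the histone methyltransferase EZH2 (3 libraries), or 200 nM TSA, trichostatin A, an inhibitor of histone deacetylases (2 libraries). GFP-positive cells were then sorted, and their total RNA was made into libraries with a kit for very small inputs. The genotype, the driver of the GFP and the source of each replicate are not given in the sources used here, so a p-value here reflects how much these particular libraries vary, which may be technical.

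Collagens are trimers of alpha chains wound into a triple helix. Fibrillar chains (types I, II, III, V, XI, XXIV and XXVII) build fibrils, and FACIT collagens such as type IX sit on fibril surfaces. Type IV chains form the network of basement membranes, and other classes form anchoring fibrils, beaded filaments, short-chain lattices or membrane-bound proteins. In the cochlea, fibrils of types II, IX and XI strengthen the tectorial membrane, the gel over the hair cells, and the type IV chains of Col4a3, Col4a4 and Col4a5 are known from the hearing loss of Alport syndrome.

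The summed expected counts were 5974230 and 5124250 in DMSO, 3398890, 3818800 and 4248340 in GSK-343, and 2724380 and 2963230 in TSA. In the deposited tables the median gap between gene length and effective length was 49 bases in both DMSO libraries and 208 to 213 bases in the 5 treated ones, and 20.8% and 23.6% of DMSO counts were mitochondrial rRNA against 3.47% to 18.1% in the treated libraries. DMSO was thus quantified with another fragment setting, and treatment and read layout cannot be told apart in any comparison with DMSO. The TSA and GSK-343 libraries share the setting, and their comparison is given first. The 18 supporting cell markers were all detected in every library, with Sox2 between 91 and 158 TPM and Sox9 between 213 and 370.3 TPM. Levels were uneven, with Epyc at 1.36 and 3.92 TPM in DMSO. Detection alone cannot check the label, because 12 or 13 of 13 hair cell markers were also detected in each library. TPM is a level scaled within each library and divided by gene length.

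Every library had collagen transcripts dominated by the same gene, Col2a1, the chain of type II fibrils. It held 46.5% and 50.99% of summed collagen TPM in DMSO, 52.7% to 54.4% in GSK-343, and 43.8% and 44.2% in TSA. Summed over the 44 genes, collagen TPM was 1594 and 1661 in DMSO, 2714, 4150.3 and 3149 in GSK-343, and 2062 and 1374 in TSA. As a share of the TPM of nuclear protein-coding genes, the sums were 0.360% and 0.358% in DMSO. That share was 0.305%, 0.512% and 0.384% in GSK-343, and 0.266% and 0.199% in TSA. On that scale DMSO lay within the GSK-343 range and both TSA libraries were lowest. Between 36 and 41 of the 44 genes had a count in a library, and none was at 0 in all 7. Levels reached at least 10 TPM in 10 or 11 genes in DMSO, 13 to 16 in GSK-343 and 16 or 17 in TSA. These numbers use TPM as deposited, not rescaled to protein-coding genes.

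**Figure D1:**
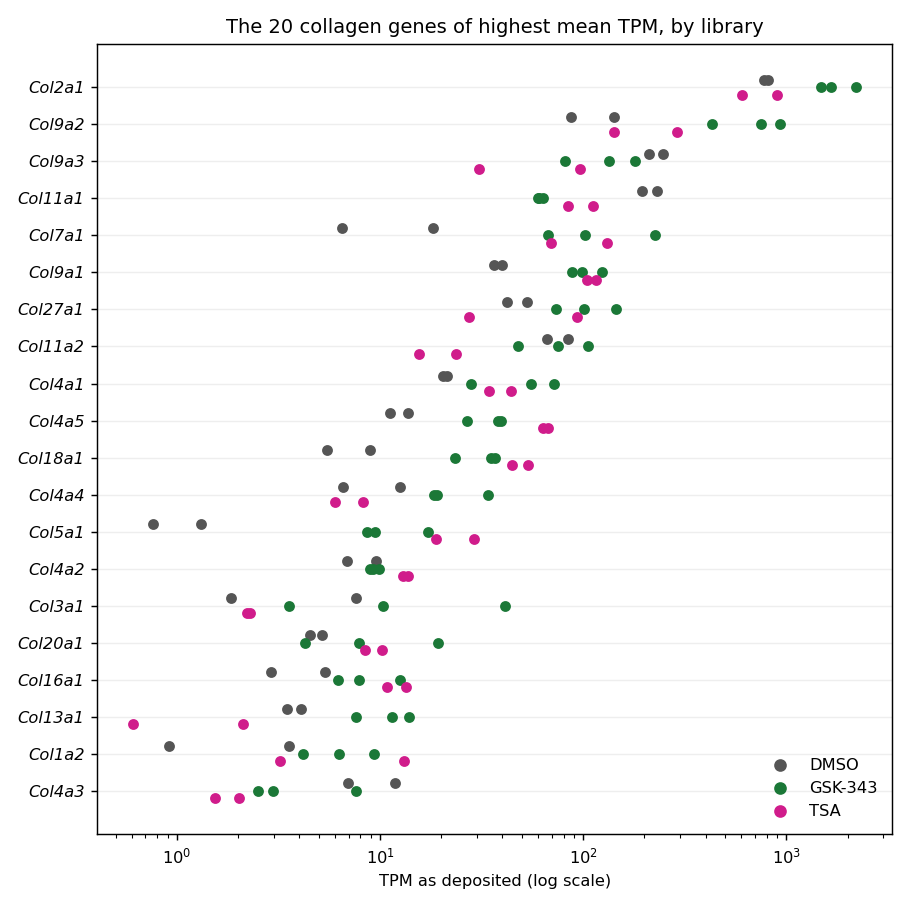
TPM as deposited (log axis) of the 20 collagen genes of highest mean TPM, 1 point per library, coloured by treatment. Col2a1 lies highest in every library, and Col9a3 and Col11a1 are the genes among the first 4 whose DMSO points lie above all treated points.

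The chains of cartilage-type fibrils made up most of the rest. Col2a1, Col9a1, Col9a2, Col9a3, Col11a1 and Col11a2 together held 90.6% and 89.0% of collagen TPM in DMSO, 81.9%, 86.3% and 87.9% in GSK-343, and 73.3% and 73.5% in TSA. With TMM-normalised CPM, a library-scaled count, per kb of the longest transcript in place of TPM, the group means were 90.4%, 90.7% and 80.7%. On either scale, the TSA libraries had the lowest shares of all 7. The 12 cartilage and bone markers, of which 5 to 8 were above 0, summed to 33.8 and 33.9 TPM in DMSO, 34.7 to 45.9 TPM in GSK-343, and 75.2 and 92.9 TPM in TSA, and Cnmd held most of the TSA sums. Cnmd (11.1 to 72.5 TPM) and Matn1 (1.68 to 16.4 TPM) were present in every library, and Runx2 reached 20.1 TPM and Alpl 12.5 TPM. Acan was at 0 in 5 libraries and at most 0.29 TPM, Hapln1 was at most 0.25 TPM, and Bglap and Ibsp were at 0 in all. The 12 genes of types I, III, V and VI, typical of connective tissue, held between 0.43% and 2.88%.

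**Figure D2:**
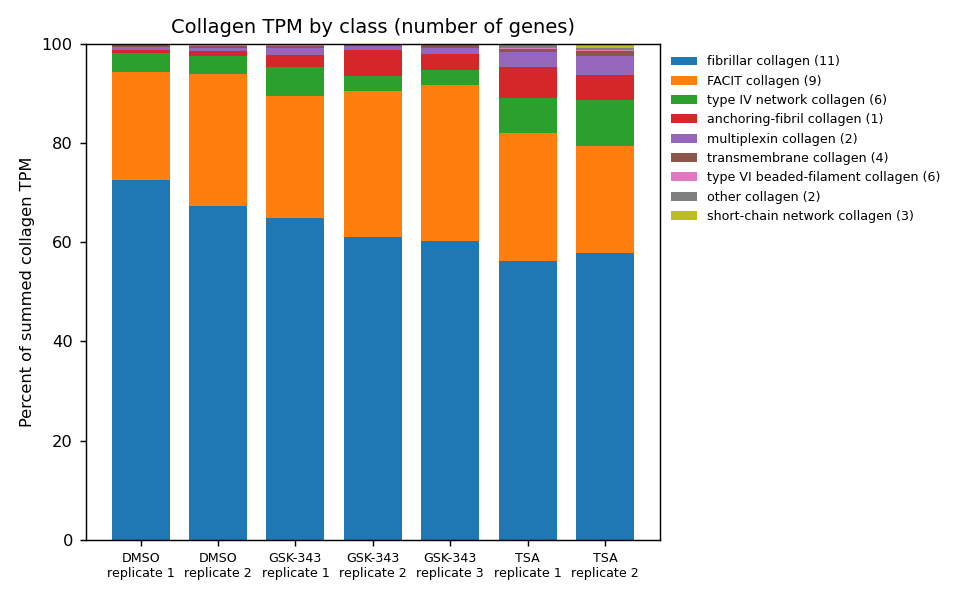
Percent of summed collagen TPM by class in each library, with the number of genes per class in brackets. Fibrillar collagens fill 56.2% to 72.5% of the bars, and the type IV share is largest in the 2 TSA libraries, at 6.95% and 9.31%.

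Between TSA and GSK-343, 7 collagen genes differed. Col8a2, Col25a1 and Col4a6, with at most 10 counts in any GSK-343 library, were higher in TSA. Col2a1, Col9a2, Col11a2 and Col4a4 were lower. Of the 44 genes, 35 passed the filter on low counts and were tested with edgeR's quasi-likelihood test at a Benjamini-Hochberg adjusted p under 0.05. Col8a2 and Col25a1 passed that filter only because of their TSA counts, so the filter itself favoured their calls as higher in TSA. In the GENCODE M21 annotation, Col2a1 lies at chr15:97975602-98004695, Col9a2 at chr4:121039385-121055322, Col11a2 at chr17:34039437-34066685, Col8a2 at chr4:126286793-126314330 and Col25a1 at chr3:130131501-130599877. The 7 calls (3 higher, 4 lower) are to be read against 9.56% of all 14907 genes tested called in this comparison (4.56% higher, 5.00% lower). The median log2 difference over the 35 genes was 0.02, beside 0.00 over all genes. Without TSA replicate 2, 2 calls were left, on the assumption that the remaining TSA library varies like the other groups, and without GSK-343 replicate 1 there were 12. The share of all genes called moved the same way, from 9.56% to 0.888% and 12.5%. With limma on log2(TPM + 1) or log2(TPM + 0.1), Col2a1, Col4a4 and Col9a2 were not called, nor, with the smaller pseudocount, Col11a2 and Col4a6 (adjusted p from 0.0571 to 0.111).

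**Figure D3:**
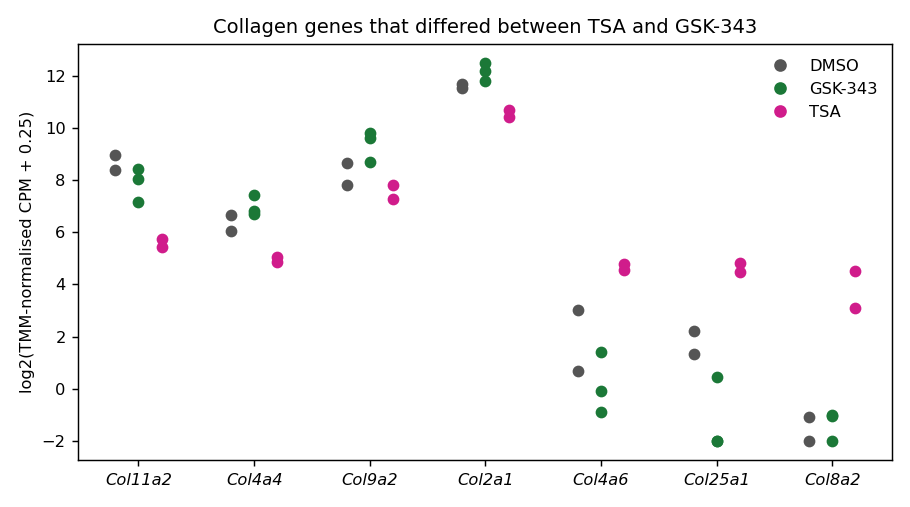
log2 of TMM-normalised CPM plus 0.25 for the 7 collagen genes that differed between TSA and GSK-343, 1 point per library. For each gene the 2 TSA points lie outside the range of the 3 GSK-343 points, and for all but Col9a2 also outside that of the DMSO points.

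Col2a1 had 3511, 5749.7 and 4695 CPM in GSK-343, 1649.6 and 1349 CPM in TSA, and 2938 and 3243 CPM in DMSO. In CPM the groups did not overlap: TSA was lowest and GSK-343 highest. In deposited TPM, TSA (903 and 607) overlapped DMSO (813 and 772). The log2 difference of TSA from GSK-343 was -1.63 ± 0.37 (SE; edgeR adjusted p = 0.0207), and those from DMSO did not pass the test (-1.04 ± 0.38 in TSA, adjusted p = 0.0573, and 0.59 ± 0.35 in GSK-343, adjusted p = 0.200). The call was lost without GSK-343 replicate 2 (-1.45, adjusted p = 0.0566), without GSK-343 replicate 3 (-1.60, adjusted p = 0.0528) and without TSA replicate 2 (-1.51, adjusted p = 0.0750). The 18 supporting cell markers summed to 22009 to 33176 TPM in GSK-343, 8937 and 11637 TPM in TSA, and 4258 and 5851 TPM in DMSO, with S100a1 the largest part in the treated libraries, and their part in the collagen differences was not tested.

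Type XI chains nucleate type II fibrils and set their width. Col11a2 had 143, 342 and 265 CPM in GSK-343, 53.2 and 43.4 CPM in TSA, and 335 and 495 CPM in DMSO, so that both TSA libraries lay under all others. It was lower in TSA than in GSK-343 by -2.37 ± 0.42 on the log2 scale (edgeR adjusted p = 0.0102) and than in DMSO by -3.10 ± 0.45 (adjusted p = 0.00081), and both calls held without each library in turn. Its partner Col11a1 had 181, 175 and 188 CPM in GSK-343, 180 and 264 CPM in TSA, and 588 and 590.2 CPM in DMSO. TSA and GSK-343 overlapped there, while every treated library lay under DMSO, with log2 differences of -1.41 ± 0.33 in TSA (edgeR adjusted p = 0.0092) and -1.70 ± 0.29 in GSK-343 (adjusted p = 0.00109). Without DMSO replicate 1 or TSA replicate 1 the TSA difference was no longer called (-1.38, adjusted p = 0.0536, and -1.11, adjusted p = 0.102). The deposited length of Col11a1 was 2932 and 3113 bases in DMSO and 5139 to 5808 bases in the treated libraries, so that the isoforms counted also differed between the layouts.

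Type IX chains decorate type II fibrils as a trimer of Col9a1, Col9a2 and Col9a3 products. Col9a2 had 412, 903 and 774 CPM in GSK-343, 227 and 156 CPM in TSA, and 222 and 404 CPM in DMSO. GSK-343 lay above all other libraries, and TSA overlapped DMSO. The log2 difference was -1.86 ± 0.42 between TSA and GSK-343 (edgeR adjusted p = 0.0219) and 1.15 ± 0.41 between GSK-343 and DMSO (adjusted p = 0.0413). The first was lost without GSK-343 replicate 2 (-1.63, adjusted p = 0.0543) or TSA replicate 2 (-1.64, adjusted p = 0.124). The second was lost without DMSO replicate 1 (0.83, adjusted p = 0.251), GSK-343 replicate 2 (0.92, adjusted p = 0.117) or GSK-343 replicate 3 (1.08, adjusted p = 0.0831), and it fell to 0.34 (adjusted p = 0.391) once a trend on GC content and length was removed.

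Col9a3 was lower in both treated groups than in DMSO. It had 322 and 491 CPM in DMSO, 73.1, 176 and 125 CPM in GSK-343, and 60.8 and 38.1 CPM in TSA, with no overlap between DMSO and the treated libraries. The log2 differences from DMSO were -3.04 ± 0.47 in TSA (edgeR adjusted p = 0.0011) and -1.70 ± 0.39 in GSK-343 (adjusted p = 0.0047), the latter lost without DMSO replicate 2 (-1.34, adjusted p = 0.0511). Col9a3 shares 234 exonic bases with Tcfl5 on the opposite strand, and whether counting used strand is not given in the sources used here, so these calls are uncertain. Col9a1, the third chain, passed in no comparison: it had 93.9 and 120 CPM in DMSO, 152 to 180.5 CPM in GSK-343, and 127 and 141 CPM in TSA.

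Ratios within a library compare the RNA of 2 chains and do not depend on the scaling between libraries. TPM ratios do depend on the deposited gene lengths, which differed between the layouts. For Col9a2 the length was 2924 bases in DMSO and 1899 to 2498 bases in the treated libraries. The log2 TPM ratio of Col9a2 to Col9a3 was -1.28 and -0.80 in DMSO, 2.39, 2.37 and 2.48 in GSK-343, and 1.58 and 2.22 in TSA. DMSO libraries thus listed more Col9a3 and every treated library more Col9a2. The ratio of Col11a1 to Col11a2 was 1.78 and 1.20 in DMSO, 0.40, -0.80 and -0.33 in GSK-343, and 1.83 and 2.85 in TSA. GSK-343 had the 3 lowest TPM ratios, under both TSA libraries of the same layout. As a ratio of counts, GSK-343 replicate 1 (0.35) lay above DMSO replicate 2 (0.25), so that GSK-343 and DMSO overlapped on that scale. The ratios are given as descriptions, and no test was run on them.

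**Figure D4:**
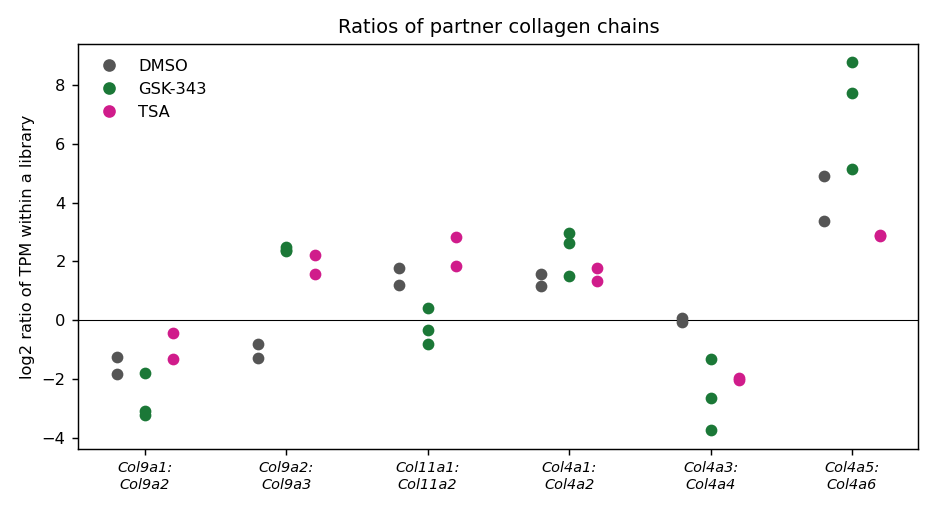
log2 ratio of TPM of partner chains within each library, 1 point per library, with 0 marking equal levels. Col9a2:Col9a3 is below 0 in both DMSO libraries and above 0 in the 5 treated ones, and Col4a3:Col4a4 is near 0 in DMSO and at most -1.33 in the treated ones.

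The other fibrillar chains were low or uneven. Col5a1, which limits fibril diameter, had 3.37 and 4.69 CPM in DMSO, 38.2, 15.3 and 25.4 CPM in GSK-343, and 41.4 and 32.6 CPM in TSA. All treated libraries were above DMSO, by 3.19 ± 0.60 in TSA (edgeR adjusted p = 0.0030) and 2.701 ± 0.57 in GSK-343 (adjusted p = 0.0032) on the log2 scale. Its exons share 99 and 113 bases with 2 opposite-strand transcripts, so strand could enter these counts. Col5a3 had log2 differences of 3.22 ± 1.19 (adjusted p = 0.0597) and 2.55 ± 1.12 (adjusted p = 0.0899) from at most 35 counts a library, and Col5a2 at most 30 counts. Col24a1 had 12 and 9 counts in TSA against 0, 2 and 0 in GSK-343, a ratio of 18.0 (exact 95% counting interval 4.40 to 158) that did not pass (edgeR adjusted p = 0.0831).

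Col27a1, a fibrillar chain of developing cartilage, gave different pictures on the count and TPM scales. It had 243 and 377 CPM in DMSO, 140.2, 289 and 165 CPM in GSK-343, and 110.3 and 41.4 CPM in TSA. The TSA difference from DMSO was -2.03 ± 0.50 on the log2 scale (edgeR adjusted p = 0.0115), lost without DMSO replicate 2 (-1.67, adjusted p = 0.0648) or TSA replicate 2 (-1.45, adjusted p = 0.0781), and 0.11 with limma on log2(TPM + 1) (adjusted p = 0.906). Its deposited length was 6528 and 7238 bases in DMSO and 2941 to 3901 bases in the treated libraries. The 2 scales also differ in how libraries are scaled. With total counts in place of TMM scaling, the difference by counts was -1.28 (edgeR adjusted p = 0.0821). The parts of length and scaling were not tested.

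Type I and III chains, the main collagens of fibroblasts and bone, were scarce. Col1a1 had at most 12 counts and 1.47 TPM in any library. Col1a2 ranged from 0.91 to 13.1 TPM, and Col3a1 from 1.84 to 41.2 TPM, the highest being GSK-343 replicate 1 with 109 counts. No comparison of these 3 genes passed the test. The 15 mesenchyme and fibroblast markers, of which 7 to 13 were above 0 in a library, summed to 107 to 130 TPM in DMSO, 204 to 385 TPM in GSK-343 and 126 to 302 TPM in TSA, with the GSK-343 maximum again in replicate 1. Pdgfra (8.69 to 32.8 TPM), Lum (27.5 to 134 TPM), Dcn (15.5 to 63.6 TPM) and Cxcl12 (22.5 to 189.7 TPM) were present in every library, and Twist1 was at 0 in 4. The part of these markers in the collagen levels was not tested.

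Type IV genes lie in head-to-head pairs, each pair transcribed outward from a shared start region. In GENCODE M21 (GRCm38, the genome of mm10), Col4a1 (minus strand, start at 11312826) and Col4a2 (plus strand, start at 11312805) on chromosome 8 overlap by 22 bases at their starts. Col4a4 (minus strand, start at 82586849) and Col4a3 (plus strand, start at 82586921) on chromosome 1 are 71 bases apart. Col4a6 (minus strand, start at 141474076) and Col4a5 (plus strand, start at 141475385) on chromosome X are 1308 bases apart. The interval between the starts of Col4a4 and Col4a3 and the sequences upstream of Col4a5 and Col4a6 are shown because Col4a3, Col4a4, Col4a5 and Col4a6 were each called in at least 1 comparison. They are taken from RefSeq on GRCm38.p6, 5′ to 3′, with capitals marking GC boxes (GGGCGG on either strand) and CCAAT boxes (CCAAT on either strand), and none overlaps an annotated exon. The first runs on the plus strand at chr1:82586850-82586920, the Col4a5 window on the plus strand at chrX:141475169-141475384, and the Col4a6 window on the minus strand at chrX:141474077-141474326.
Col4a3-Col4a4: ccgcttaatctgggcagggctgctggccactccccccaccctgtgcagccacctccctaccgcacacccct
Col4a5: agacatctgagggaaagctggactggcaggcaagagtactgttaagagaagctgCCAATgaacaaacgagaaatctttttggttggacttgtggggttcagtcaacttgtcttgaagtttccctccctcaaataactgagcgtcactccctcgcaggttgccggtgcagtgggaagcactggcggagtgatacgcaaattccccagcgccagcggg
Col4a6: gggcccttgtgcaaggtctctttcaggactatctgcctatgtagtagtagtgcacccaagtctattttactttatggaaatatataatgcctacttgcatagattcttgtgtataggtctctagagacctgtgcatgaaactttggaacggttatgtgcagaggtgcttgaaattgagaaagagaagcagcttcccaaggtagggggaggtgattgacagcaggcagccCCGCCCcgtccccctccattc
The short Col4a3-Col4a4 interval holds neither box, the Col4a5 window holds 1 CCAAT box, and the Col4a6 window holds 1 GC box.

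Col4a1 and Col4a2 encode the chains of the most widespread basement membrane network. Col4a1 had 63.1 and 61.0 CPM in DMSO, 189.8, 159 and 107 CPM in GSK-343, and 103 and 106 CPM in TSA. Every treated library was above DMSO, but only the GSK-343 difference passed, at 1.29 ± 0.34 on the log2 scale (edgeR adjusted p = 0.0099), and it did not without DMSO replicate 1 (1.36, adjusted p = 0.0539) or replicate 2 (1.29, adjusted p = 0.0607). Col4a2 had 29.5 to 60.5 CPM over all libraries and passed in no comparison.

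Col4a3 and Col4a4 are partners in the network of the mature inner ear and kidney. Col4a3 had 74.1 and 51.1 CPM in DMSO, 8.22, 35.0 and 15.0 CPM in GSK-343, and 6.72 and 6.16 CPM in TSA. Both treated groups lay under DMSO in CPM, by -3.27 ± 0.66 in TSA (edgeR adjusted p = 0.0046) and -1.68 ± 0.54 in GSK-343 (adjusted p = 0.0257). In deposited TPM, GSK-343 replicate 2 (7.63) lay above DMSO replicate 2 (6.92). The GSK-343 call was lost without DMSO replicate 1 (-1.35, adjusted p = 0.149) or GSK-343 replicate 3 (-1.50, adjusted p = 0.0800), and 563 bases of Col4a3 exons overlap an opposite-strand transcript, C430014B12Rik.

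Col4a4 had 101 and 65.4 CPM in DMSO, 171, 104 and 111 CPM in GSK-343, and 32.8 and 28.5 CPM in TSA. Its GSK-343 libraries were the highest and its TSA libraries the lowest, with no overlap. The difference between TSA and GSK-343 was -2.07 ± 0.38 on the log2 scale (edgeR adjusted p = 0.0114; -1.99 and 0.0785 without TSA replicate 2). Against DMSO, TSA was lower by -1.44 ± 0.40 (edgeR adjusted p = 0.0179), a call lost without DMSO replicate 1 (-1.06, adjusted p = 0.133), TSA replicate 1 (-1.50, adjusted p = 0.0682) or TSA replicate 2 (-1.31, adjusted p = 0.127). The log2 TPM ratio of Col4a3 to Col4a4 was -0.07 and 0.08 in DMSO, -3.75, -1.33 and -2.64 in GSK-343, and -2.04 and -1.96 in TSA, so that Col4a4 exceeded Col4a3 in all 5 treated libraries.

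Col4a5 and Col4a6 are X-linked. Col4a6 had 1, 10 and 3 counts in GSK-343 (0.28, 2.43 and 0.69 CPM), 83 and 92 counts in TSA (23.2 and 27.0 CPM), and 6 and 30 counts in DMSO (1.35 and 7.82 CPM). TSA lay above all other libraries, by 4.41 ± 0.92 over GSK-343 on the log2 scale (edgeR adjusted p = 0.0167; 4.28 and 0.0663 without TSA replicate 2) and by 2.46 ± 0.96 over DMSO (adjusted p = 0.0738, not called). Col4a5 had 38.2 and 39.4 CPM in DMSO, 68.3, 52.6 and 77.7 CPM in GSK-343, and 91.3 and 104 CPM in TSA. Only TSA against DMSO passed, at 1.33 ± 0.36 (edgeR adjusted p = 0.0174), and it did not without DMSO replicate 1 (1.34, adjusted p = 0.0864), DMSO replicate 2 (1.37, adjusted p = 0.0761) or TSA replicate 2 (1.27, adjusted p = 0.101). The log2 TPM ratio of Col4a5 to Col4a6 was 8.78, 5.15 and 7.73 in GSK-343 and 2.89 and 2.86 in TSA: Col4a5 was the more abundant chain in every library, by least in TSA.

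Col8a2 and Col25a1 had at most 17 counts in any library outside TSA. Their upstream windows are shown because no other collagen genes gained so much in TSA over GSK-343, and that of Col11a2 because its fall in TSA held without each library. All run on the plus strand of GRCm38.p6 from RefSeq and overlap no annotated exon, at chr4:126286544-126286792 for Col8a2, chr3:130180595-130180844 for Col25a1 and chr17:34038888-34039137 for Col11a2. The Col25a1 window lies within the annotated gene, upstream of a later RefSeq start. Capitals mark GC boxes, CCAAT boxes and the TATA box (TATAAA on either strand).
Col8a2: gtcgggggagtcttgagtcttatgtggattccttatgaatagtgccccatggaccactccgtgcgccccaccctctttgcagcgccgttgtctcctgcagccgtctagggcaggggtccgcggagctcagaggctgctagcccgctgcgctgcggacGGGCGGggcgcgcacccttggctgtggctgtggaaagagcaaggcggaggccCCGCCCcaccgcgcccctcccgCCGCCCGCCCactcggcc
Col25a1: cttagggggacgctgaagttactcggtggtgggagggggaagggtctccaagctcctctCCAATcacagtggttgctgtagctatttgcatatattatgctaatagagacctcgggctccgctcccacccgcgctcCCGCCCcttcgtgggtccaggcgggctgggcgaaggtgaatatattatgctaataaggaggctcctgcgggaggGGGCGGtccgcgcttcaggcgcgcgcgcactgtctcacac
Col11a2: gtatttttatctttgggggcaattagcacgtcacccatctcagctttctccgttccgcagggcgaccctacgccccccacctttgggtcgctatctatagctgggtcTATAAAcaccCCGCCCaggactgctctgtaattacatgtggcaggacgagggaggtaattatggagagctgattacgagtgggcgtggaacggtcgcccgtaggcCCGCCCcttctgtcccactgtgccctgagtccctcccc
The Col8a2 window holds 4 GC boxes, the Col25a1 window 2 GC boxes and 1 CCAAT box, and the Col11a2 window 2 GC boxes and 1 TATA box.

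Col8a2, a short-chain collagen of the corneal Descemet membrane, had 1 and 0 counts in DMSO, 0, 1 and 1 in GSK-343, and 30 and 78 in TSA (8.402 and 22.9 CPM). Its 108 counts in TSA against 2 in GSK-343 gave a CPM ratio of 92.5 (exact 95% counting interval 25.01 to 774), and against 1 count in DMSO a ratio of 128 (22.5 to 5112). These intervals cover counting error only. Col8a2 passed the filter on low counts only through its TSA libraries. The edgeR test passed against GSK-343 (adjusted p = 0.0100) and DMSO (adjusted p = 0.0046), and did not without TSA replicate 2, which held most of the counts (adjusted p = 0.257 and 0.146). Its partner chain Col8a1 had at most 7 counts in any library and was not tested.

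Col25a1, a membrane-bound collagen known from neurons, had 10 and 17 counts in DMSO, 4, 0 and 0 in GSK-343, and 79 and 96 in TSA. In CPM this was 2.25 and 4.43, then 1.13, 0 and 0, then 22.1 and 28.2, with no overlap between any groups. TSA exceeded GSK-343 by 6.05 ± 1.08 on the log2 scale (edgeR adjusted p = 0.0103), a call that held without each library. The differences from DMSO, 2.91 ± 1.02 in TSA (edgeR adjusted p = 0.04996) and -3.14 ± 1.09 in GSK-343 (adjusted p = 0.0374), were each lost without 4 of the 7 libraries (adjusted p from 0.0790 to 0.193 and from 0.0505 to 0.130). Those libraries were all 4 of the DMSO and TSA groups for the former, and DMSO replicate 2, GSK-343 replicates 2 and 3 and TSA replicate 2 for the latter. The 11 neuron markers, of which 8 to 11 were above 0 in a library, summed to 25.8 and 26.6 TPM in DMSO, 44.9 to 136 TPM in GSK-343, and 344 and 523 TPM in TSA. The 13 hair cell markers, 12 or 13 above 0, summed to 199 and 210.0 TPM in DMSO, 441 to 1022 TPM in GSK-343, and 648 and 2610 TPM in TSA. Both lists were highest in a TSA library, and their part in the collagen results was not tested. In bulk RNA, a change in the number of cells of a type and a change in RNA per cell cannot be told apart.

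The remaining membrane-bound collagens were low. Col13a1, found at neuromuscular and cell-matrix junctions, had 20, 32 and 51 counts in GSK-343 and 5 and 1 in TSA, a log2 difference of -3.26 ± 0.96 that missed the threshold (edgeR adjusted p = 0.0511). Col23a1 had 10 to 27 counts in every library and passed in no comparison. Col17a1, a hemidesmosome collagen, had at most 17 counts and was not tested.

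Col18a1, a basement membrane proteoglycan core whose end fragment is endostatin, had 39.8 and 27.1 CPM in DMSO, 91.2, 64.0 and 104 CPM in GSK-343, and 103 and 104 CPM in TSA. Every treated library was above DMSO, by 1.63 ± 0.39 in TSA (edgeR adjusted p = 0.0095) and 1.37 ± 0.36 in GSK-343 (adjusted p = 0.0102) on the log2 scale. Both calls were lost without DMSO replicate 2 (1.40, adjusted p = 0.0733, and 1.15, adjusted p = 0.0884). Col15a1, the other multiplexin, had 7 to 39 counts and passed in no comparison. Col26a1 had 4 and 2 counts in DMSO, 9, 10 and 21 in GSK-343, and 37 and 22 in TSA, and passed in TSA against DMSO alone (3.50 ± 1.008, edgeR adjusted p = 0.0222). That call was lost without any DMSO or TSA library (adjusted p from 0.0704 to 0.190).

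Col7a1, which forms the anchoring fibrils under epithelia, was among the 5 most abundant collagen genes by mean TPM, and its TPM and counts disagreed. Its TPM was 6.50 and 18.2 in DMSO, 67.4, 224.5 and 102 in GSK-343, and 131 and 69.7 in TSA. Its CPM was 38.4 and 45.4 in DMSO, 38.8, 138 and 71.7 in GSK-343, and 44.8 and 25.2 in TSA. Only the TPM values separated treated from DMSO libraries. By counts, the TSA difference from DMSO was -0.26 ± 0.53 (edgeR adjusted p = 0.752), against 3.01 with limma on log2(TPM + 1) (adjusted p = 0.0156). The deposited length was 6691 and 2556 bases in DMSO and 964 to 1367 bases in the treated libraries. Of the 35 tested genes, 18 had deposited lengths that differed more than 1.5-fold between libraries.

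Type VI chains, which form beaded filaments, were near the limit of detection. Col6a1 had 0 and 1 counts in DMSO, 40, 11 and 13 in GSK-343, and 8 and 10 in TSA. The ratio of GSK-343 to DMSO was 44.3 (64 counts against 1, counting interval 7.68 to 1778; edgeR adjusted p = 0.0116, and 0.0719 without DMSO replicate 1), and that of TSA to DMSO 21.4 (18 against 1, 3.37 to 891; adjusted p = 0.0525). Col6a5 went the other way, with 21 and 13 counts in DMSO and none in the 5 treated libraries, at least 16.4-fold lower in GSK-343 and 9.54-fold in TSA against a floor of 3 counts over the group. Col6a4 had 7 and 25 counts in DMSO, 2 in GSK-343 and 0 in TSA. Over all genes, 25166 and 28754 were above 0 in DMSO, against 15916 to 17278 in GSK-343 and 19251 and 18346 in TSA. The part of this difference in the zeros of Col6a4 and Col6a5 was not tested. Col6a4 and Col6a5 did not pass the filter and were not tested. Col6a3, Col6a6, Col8a1, Col10a1, Col17a1, Col19a1 and Col28a1 were likewise not tested, with at most 17 counts in a library.

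Among the other FACIT collagens, no gene passed in any comparison. Col12a1 had 1, 6 and 9 counts in GSK-343 against 29 and 33 in TSA, a log2 difference of 2.75 ± 0.90 (edgeR adjusted p = 0.0695). Col14a1, Col16a1, Col20a1 and Col22a1 had 2 to 66 counts a library.

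Against DMSO, collagen genes moved in both directions. Of the 35 tested, 12 differed in TSA, with Col4a5, Col5a1, Col8a2, Col18a1, Col25a1 and Col26a1 higher and Col4a3, Col4a4, Col9a3, Col11a1, Col11a2 and Col27a1 lower. This is to be read against 28.5% of all genes tested called in that comparison (12.8% higher, 15.7% lower). Col8a2 and Col25a1 were tested only because of their TSA counts. In GSK-343, 9 differed, with Col4a1, Col5a1, Col6a1, Col9a2 and Col18a1 higher and Col4a3, Col9a3, Col11a1 and Col25a1 lower, beside 39.0% of all genes (17.7% higher, 21.3% lower). The median log2 difference of the 35 genes was 0.23 in TSA and 0.38 in GSK-343, against -0.05 and -0.04 over all genes. These comparisons share the DMSO libraries, and both are also comparisons of read layout. With total counts in place of TMM scaling, the median of all genes moved to 0.65 and 0.42. The collagen calls then split into 11 higher and 3 lower in TSA, and 11 higher and 2 lower in GSK-343. Of all genes called, the share that was higher went from 45.0% to 74.5% and from 45.4% to 63.1% under that scaling, and from 47.7% to 71.5% between TSA and GSK-343, where the collagen split remained 3 higher and 4 lower. Without TSA replicate 2 the TSA count of collagen genes went from 12 to 6, beside 11.5% of all genes called. The GSK-343 count was 6 without DMSO replicate 2 (30.2% of all genes) and 6 without GSK-343 replicate 3 (32.0%). Among these calls, total count scaling ended Col4a4, Col11a1 and Col27a1 in TSA and Col4a3 and Col25a1 in GSK-343 (adjusted p from 0.0664 to 0.170). Removal of a GC content and length trend ended Col4a3, Col9a2 and Col25a1 in GSK-343 (0.112 to 0.391). With limma on log2(TPM + 0.1), Col4a3, Col4a4 and Col27a1 in TSA and Col4a1, Col4a3, Col9a3 and Col25a1 in GSK-343 were not called (0.0619 to 0.915).

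**Figure D5:**
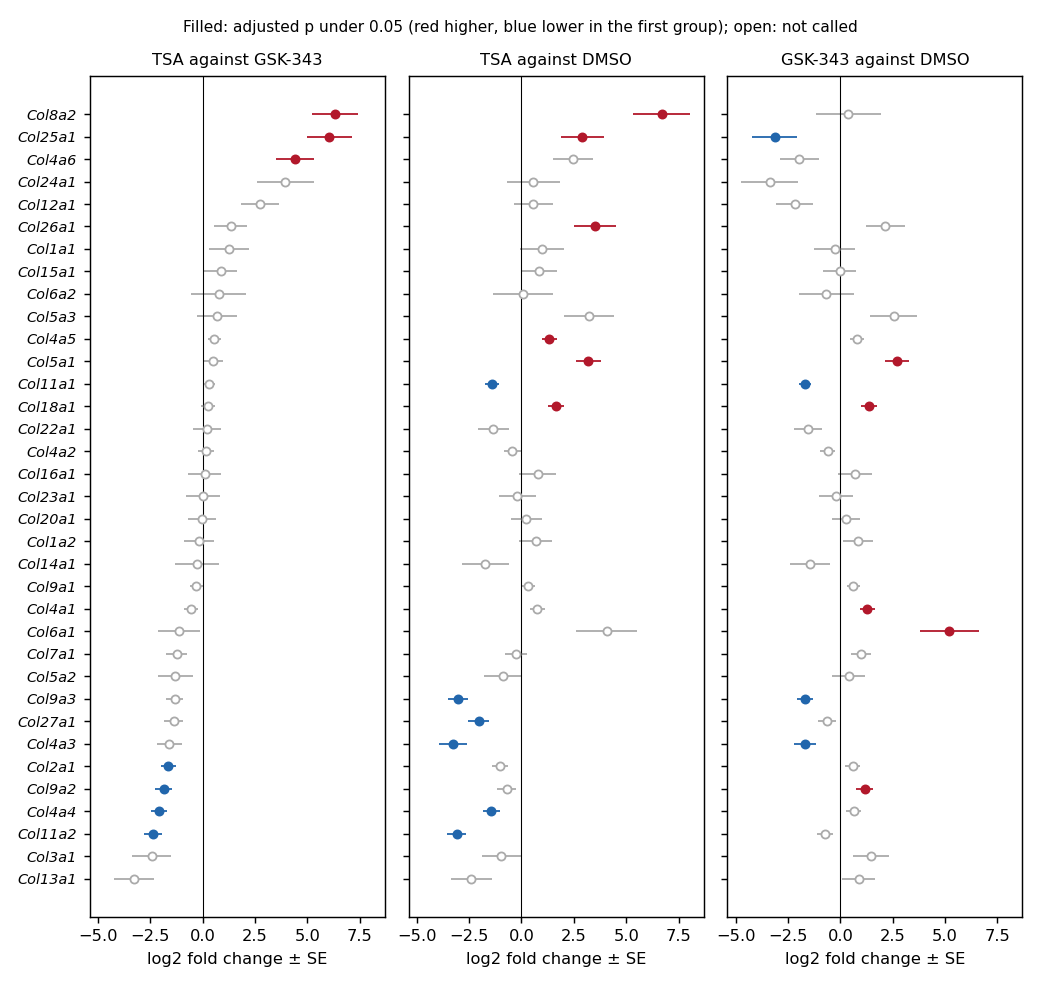
log2 fold change with its SE for the 35 tested collagen genes in the 3 comparisons, ordered by TSA against GSK-343. Filled points passed an adjusted p of 0.05 (red higher, blue lower in the first-named group): 7, 12 and 9 genes from left to right. The fitted folds of Col8a2, Col6a1 and Col24a1 rest on 1 or 2 counts in a group and give no bound.

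The machinery that modifies and folds procollagen was described from lists of its genes. The numbers called in each list are to be read against the share of all genes tested that was called. Between TSA and GSK-343 this share was 9.56% (4.56% higher, 5.00% lower). Against DMSO it was 28.5% in TSA (12.8% higher, 15.7% lower) and 39.0% in GSK-343 (17.7% higher, 21.3% lower). Of 15 tested genes for prolyl and lysyl hydroxylation and glycosylation, 3 were lower and none higher in TSA than in GSK-343 (median log2 difference -0.61 beside 0.00 over all genes). Those were Crtap, part of the prolyl 3-hydroxylase complex (-2.05 ± 0.37, edgeR adjusted p = 0.0104), Ppib, a prolyl isomerase (-1.51 ± 0.31, adjusted p = 0.0155), and Plod3, a lysyl hydroxylase (-1.56 ± 0.36, adjusted p = 0.0226). Of 17 tested folding and export genes, 4 were lower and none higher (median -0.66). They were Serpinh1, the collagen chaperone (-1.57 ± 0.34, edgeR adjusted p = 0.0192), Fkbp9 (-1.38 ± 0.32, adjusted p = 0.0229), Creb3l1, a secretory pathway transcription factor (-2.02 ± 0.49, adjusted p = 0.0276), and Calr (-1.29 ± 0.33, adjusted p = 0.0330). All 7 calls were lost without TSA replicate 2 (adjusted p from 0.0792 to 0.214). All but Crtap and Ppib were also lost without GSK-343 replicate 2 (0.0510 to 0.0862). Against DMSO, 5 modifying genes were higher and 2 lower in TSA, and 7 were higher and 1 lower in GSK-343. For folding and export the counts were 2 and 4 in TSA and 5 and 1 in GSK-343. Crtap was the modifying gene with the smallest adjusted p in both, at 5.14 ± 0.45 in GSK-343 (edgeR adjusted p = 1.78e-05) and 3.09 ± 0.44 in TSA (adjusted p = 0.000738).

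Of 12 tested genes for propeptide removal and cross-linking, Adamts14, a procollagen N-proteinase, was lower in TSA than in GSK-343 (-2.49 ± 0.58, edgeR adjusted p = 0.0246) and none was higher. Of 6 receptor genes, Ddr1 (-1.94 ± 0.39, adjusted p = 0.0152) and Lair1 were lower, the latter at a mean of 6.17 CPM in GSK-343 and 0.15 CPM in TSA. Of 10 genes for breakdown, the membrane collagenase Mmp14 (-2.54 ± 0.45, edgeR adjusted p = 0.0102), Ctsk (means of 10.3 and 0.42 CPM) and the inhibitor Timp2 (-1.63 ± 0.35, adjusted p = 0.0171) were lower and Mmp17 (4.05 ± 1.08, adjusted p = 0.0368) was higher. None of these 7 calls held without TSA replicate 2 (adjusted p from 0.0553 to 0.296). At means of 0.42 and 0.15 CPM in TSA, Ctsk and Lair1 passed the filter on low counts only through other libraries. The filter itself thus favoured their calls as lower in TSA. Against DMSO the numbers higher and lower were 1 and 4, 0 and 2, and 1 and 2 for these 3 lists in TSA, and 2 and 2, 1 and 1, and 2 and 2 in GSK-343. The shares of all genes called were 9.56% between TSA and GSK-343, and 28.5% and 39.0% in TSA and GSK-343 against DMSO. Loxl1, a cross-linking enzyme, had no count in DMSO and means of 6.81 CPM in GSK-343 and 12.6 CPM in TSA.

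Of 15 tested basement membrane partners, 3 were higher and none lower in TSA than in GSK-343 (median log2 difference 0.37): Nid1 (3.84 ± 0.56, edgeR adjusted p = 0.00527) and Nid2 (3.93 ± 0.64, adjusted p = 0.00795), the nidogens that bind type IV collagen, and the laminin chain Lamb1 (3.07 ± 0.62, adjusted p = 0.0151). Nid1 kept its call without each library, and Nid2 and Lamb1 lost it without TSA replicate 2 (adjusted p = 0.0766 and 0.140). Of 16 fibril-associated proteins, Fn1 was higher (1.67 ± 0.36, edgeR adjusted p = 0.0180), and the collagen-binding Sparc (-2.07 ± 0.44, adjusted p = 0.0182) and Epyc (-2.53 ± 0.73, adjusted p = 0.0472) were lower. Of 7 tectorial membrane glycoproteins, Tecta (-1.72 ± 0.37, adjusted p = 0.0191) and Otoa (-1.95 ± 0.44, adjusted p = 0.0218) were lower and none was higher. Fn1 and Tecta lost their calls without TSA replicate 2 (0.0660 and 0.0799), Otoa without either TSA replicate 1 (0.103) or GSK-343 replicate 2 (0.0509), Sparc without GSK-343 replicate 3 (0.0517), and Epyc without either TSA library, GSK-343 replicate 1 or GSK-343 replicate 3 (0.0554 to 0.137). Against DMSO, basement membrane partners counted 5 higher and 3 lower in TSA and 3 and 4 in GSK-343, fibril-associated proteins 1 and 4, and 2 and 2, and tectorial membrane glycoproteins none higher and 2 lower in each. Beside these stand 28.5% of all genes called in TSA and 39.0% in GSK-343 against DMSO, and 9.56% between TSA and GSK-343.

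Of 18 tested regulators of collagen genes, Tgfb2 (-1.21 ± 0.32, edgeR adjusted p = 0.0369) and Sox10 (-2.03 ± 0.54, adjusted p = 0.0373) were lower in TSA than in GSK-343 and none was higher, and neither call held without TSA replicate 2 (adjusted p = 0.223 and 0.262) or without GSK-343 replicate 2 or 3. Between TSA and GSK-343, 9.56% of all genes were called (4.56% higher, 5.00% lower). Against DMSO, 2 were higher and 6 lower in TSA (28.5% of all genes called). In GSK-343, 2 were higher and 4 lower than in DMSO (39.0% of all genes called). The signal mediators Smad3 (3.76 ± 0.60, edgeR adjusted p = 0.0014, and 3.56 ± 0.58, adjusted p = 0.00080) and Smad4 (2.34 ± 0.45, adjusted p = 0.0037, and 1.96 ± 0.43, adjusted p = 0.0038) were the 2 higher in each. Sox9 drives Col2a1 in cartilage. As deposited, it read 213 and 258 TPM in DMSO, 223 to 370.3 TPM in GSK-343, and 226 and 258 TPM in TSA. The groups overlapped on that scale, which is not rescaled to protein-coding genes. Nuclear protein-coding genes took 62.5% and 63.4% of the DMSO counts, against 78.2% to 93.4% for treated libraries. The overlap with DMSO therefore does not show that Sox9 was unchanged.

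Upstream windows from RefSeq (250 bases before to 50 after a start) matched 35 of the 44 genes, in 38 windows. Their median GC content was 59.8% beside 52.7% over all 32851 windows, and they held a median of 11.5 CpG beside 7. A GC box was found in 23 of the 38, against 35.7% of all windows, a CCAAT box in 13, against 37.4%, a TATA box in 5, against 13.6%, and the letters AACAAT, the core bound by SOX factors, in 1, against 10.7%, all on either strand. These are matches of letters and not sites.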

How the data were processed

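Reads were aligned with STAR, quantified with RSEM on mm10 and compared with DESeq2, per the submitters' processing notes; the annotation release, read layout and strand use are not given in the sources used here. The expected counts deposited by the authors are RSEM estimates per gene, not scaled between libraries, and the deposited TPM values divide them by effective length, per the file headers. Of 48709 genes per table, 48349 matched GENCODE M21. Expected counts were rounded to whole numbers and tested with edgeR 4.0.16 (R 4.3.3): TMM scaling, filterByExpr, 1 quasi-likelihood fit of all 14907 genes that passed over all 7 libraries with 4 residual degrees of freedom, and 3 contrasts, with Benjamini-Hochberg adjustment over all genes at 0.05. SE is the log2 fold change divided by the square root of F. CPM are TMM-normalised. For genes with 1 to 3 counts in a group, CPM ratios carry exact 95% counting intervals. With 0 counts, a floor of 3 counts over the group was used, beside the lower end of that interval. The script was tested on simulated counts.

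The collagen genes and lists were chosen with earlier results of these data known. Named were the collagen genes called in any comparison, the 12 of highest mean TPM, types I, II, IV, IX and XI, and up to 4 called genes per list and comparison; others named were chosen after their values were seen. Alternatives were other scalings and filters, DESeq2 1.42.0, limma 3.58.1 on log2(TPM + 1) or log2(TPM + 0.1), a GC content and length trend, a replicate block, protein-coding genes alone and each library left out. Robust estimation and CPM per kb of the longest transcript were added after the data were seen. The 5 pairs of replicates within groups differed by more than counting noise. Promoter windows came from RefSeq (GRCm38.p6).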

Additional observations from a re-analysis of the deposited data

How the results depend on the processing

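Every collagen call kept its direction in the alternatives run, except Col27a1 in TSA against DMSO, and the counts of collagen calls stayed within 1.5 times of 7, 12 and 9 except as follows. Between TSA and GSK-343 the count was 2 with limma on log2(TPM + 0.1) and 2 to 12 when libraries were left out in turn. In TSA against DMSO it was 6 to 16 with libraries left out. In GSK-343 against DMSO it was 6 to 11 with libraries left out and 5 with the GC content and length trend removed together with the replicate block. With limma on log2(TPM + 1) and log2(TPM + 0.1), TSA differences from DMSO were 0.11 and 0.10 for Col27a1 and 3.01 and 3.12 for Col7a1, whose counts give -2.03 and -0.26, and 0.18 and 0.18 for Sparc and 0.067 and 0.067 for Timp2 (-1.83 and -1.05 by edgeR). Sp1 in GSK-343 against DMSO was 0.21 and 0.22 with the GC content and length trend removed, without and with the block (-1.15 by edgeR). The causes were not tested. With limma on log2(TPM + 0.1), 3.2% of all genes were called between TSA and GSK-343. With the trend and the block removed together, 25.1% were called in GSK-343 against DMSO. The share of all genes called also moved when libraries were left out.

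As ratios of counts in place of TPM, mean log2 Col9a2:Col9a3 was -0.41 in DMSO and 2.50 in GSK-343, Col11a1:Col11a2 0.53 in DMSO, Col4a1:Col4a2 0.35 in DMSO, Col4a3:Col4a4 -0.40 in DMSO (0.0012 in TPM) and -2.25 in TSA, and Col4a5:Col4a6 1.96 in TSA. The share of types II, IX and XI was 90.7% in GSK-343 and 80.7% in TSA as CPM per kb. Deviations of same-numbered libraries from their group means correlated between -0.09 and 0.04. This cannot show whether a replicate number marks a shared source, because deviations in a group of 2 libraries mirror each other. With a replicate block, the calls higher and lower were 3 and 4, 8 and 7, and 4 and 3 in the 3 comparisons. The shares of all genes called were then 5.64%, 26% and 30%. The low-count filter left out 9 of the 44 collagen genes. With no filter beyond 1 count, all 44 were tested and 9, 16 and 10 were called, beside 5.58%, 13.5% and 21.7% of all genes.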
